A study of Mus musculus with 6 samples.

Results

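Levels of 9 genes of the CD28 receptor family, of other inhibitory T cell receptors and of their ligands were compared between activated CD4 T cells of miR-155 knockout (KO) mice and of wild-type (WT) mice. The genes are Ctla4, Cd28, Icos, Pdcd1, Lag3, Havcr2, Cd274, Cd80 and Cd86, taken as every probe set whose platform gene symbol is one of 10 listed symbols. The tenth, Btla, had no probe set under its symbol and was not analysed here. The 9 genes had 15 of the 22626 probe sets that are not controls, and all 9 were among the 9295 of 12393 named genes that were tested after a filter on dim genes. All animals were of the C57BL/6 strain, the KO mice being labelled miR-155 KO and the series description citing a published knockout line, and no source used here gives ages. Each genotype had 3 arrays, each described as the cells of a separate mouse. Bead-purified CD4 T cells of spleen and lymph nodes spent 3 days in culture. The medium held anti-CD3 and anti-CD28 (each 1 µg/mL) with 20 U/mL of IL-2, so both genotypes received an antibody to CD28, one of the members.

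T cells need a signal from the antigen receptor and a second one from costimulatory receptors. CD28 gives that second signal when it binds CD80 or CD86 on antigen-presenting cells, ICOS is a related costimulator that appears after activation, and CTLA-4 competes with CD28 for the same ligands and dampens the response. PD-1 (gene Pdcd1, ligand PD-L1, gene Cd274), LAG-3 and TIM-3 (gene Havcr2) are inhibitory receptors that activated T cells put on their surface, and they are known as checkpoints. CTLA4 has been reported as a target of miR-155 in human T cells. The microRNA deleted in the KO mice is printed first because its seed, bases 2 to 8 and shown in capitals, is the part that pairs with target transcripts. RefSeq places it at chr16:84714143-84714165 on the plus strand of GRCm38.p6, and of 1738 mature mouse microRNAs in the RefSeq table only 1, this one, had that seed.

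mmu-miR-155-5p: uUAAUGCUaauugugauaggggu

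Values are log2 intensities summarised per probe set, every difference is KO minus WT on that scale, and errors of means are SDs over 3 arrays. The host transcript Mir155hg averaged 3.95 in KO and 7.50 in WT, and each KO array was below each WT array. In both genotypes replicate 1 carried Xist without Y-linked transcripts and replicate 2 carried Y-linked transcripts without Xist. Both replicate 3 arrays carried the 2 together, with Xist at 12.59 on the KO array and 12.64 on the WT array by its brightest probe set, and Eif2s3y at 10.05 on the KO array and 10.21 on the WT array. For those 2 arrays 1 mouse per array is therefore not certain. KO replicate 1 lay farthest from the rest, with a score of -41.3 on the first principal component, which held 61.9% of the variance, while the other 5 arrays ranged from -14.6 to 26.1. The cells' identity was checked by its markers. The mean of 8 CD4 T cell markers was 11.2 to 11.4 on the KO arrays and 10.9 to 11.2 on the WT arrays. Of these, Cd3d, Cd3e, Cd3g, Cd2, Cd5 and Lat are T cell genes not particular to CD4 T cells. Cd4 itself averaged 9.09 in KO and 9.04 in WT, and Zbtb7b 8.22 in KO and 7.74 in WT. Cultures were measured in bulk, so more transcript per cell and more cells that carry it cannot be told apart.

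No member differed between genotypes past the test over all genes, and the differences were of uneven size across the family. Mean levels of Cd28, Lag3 and Ctla4 were 1.39-fold to 1.59-fold higher in KO, that of Havcr2 was also higher but in WT was no brighter than the dimmest gene tested, that of Pdcd1 was 1.28-fold higher in WT, and those of Icos, Cd274, Cd80 and Cd86 differed by at most 1.14-fold by their brightest probe set. Of the 9 members 0 had a limma adjusted p under 0.05, as had 0 of the 9295 genes (0% called), the smallest adjusted p over all genes being 0.545. At an unadjusted limma p under 0.05 there was 1 member, Cd28, against 7.43% of all genes (3.57% higher and 3.86% lower in KO), which is a share near the background. Over every probe set the background was 6.55%. The mean was higher in KO for 7 of 9 members, against 49.2% of all genes, and lower for 2, against 50.8%. The median difference of the members was 0.19, against -0.0036 over all genes tested. The median size of the difference, without its sign, was 0.36 for the members and 0.16 over all genes. KO and WT arrays did not overlap for 1 of 9 members, Havcr2, against 12.8% of all genes (5.86% with KO above WT and 6.92% with KO below). A difference of at least 0.5 was found for 3 members, Havcr2, Cd28 and Lag3, against 5.24% of all genes, and one of -0.5 or less for 0 members, against 5.91%.

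**Figure D1:**
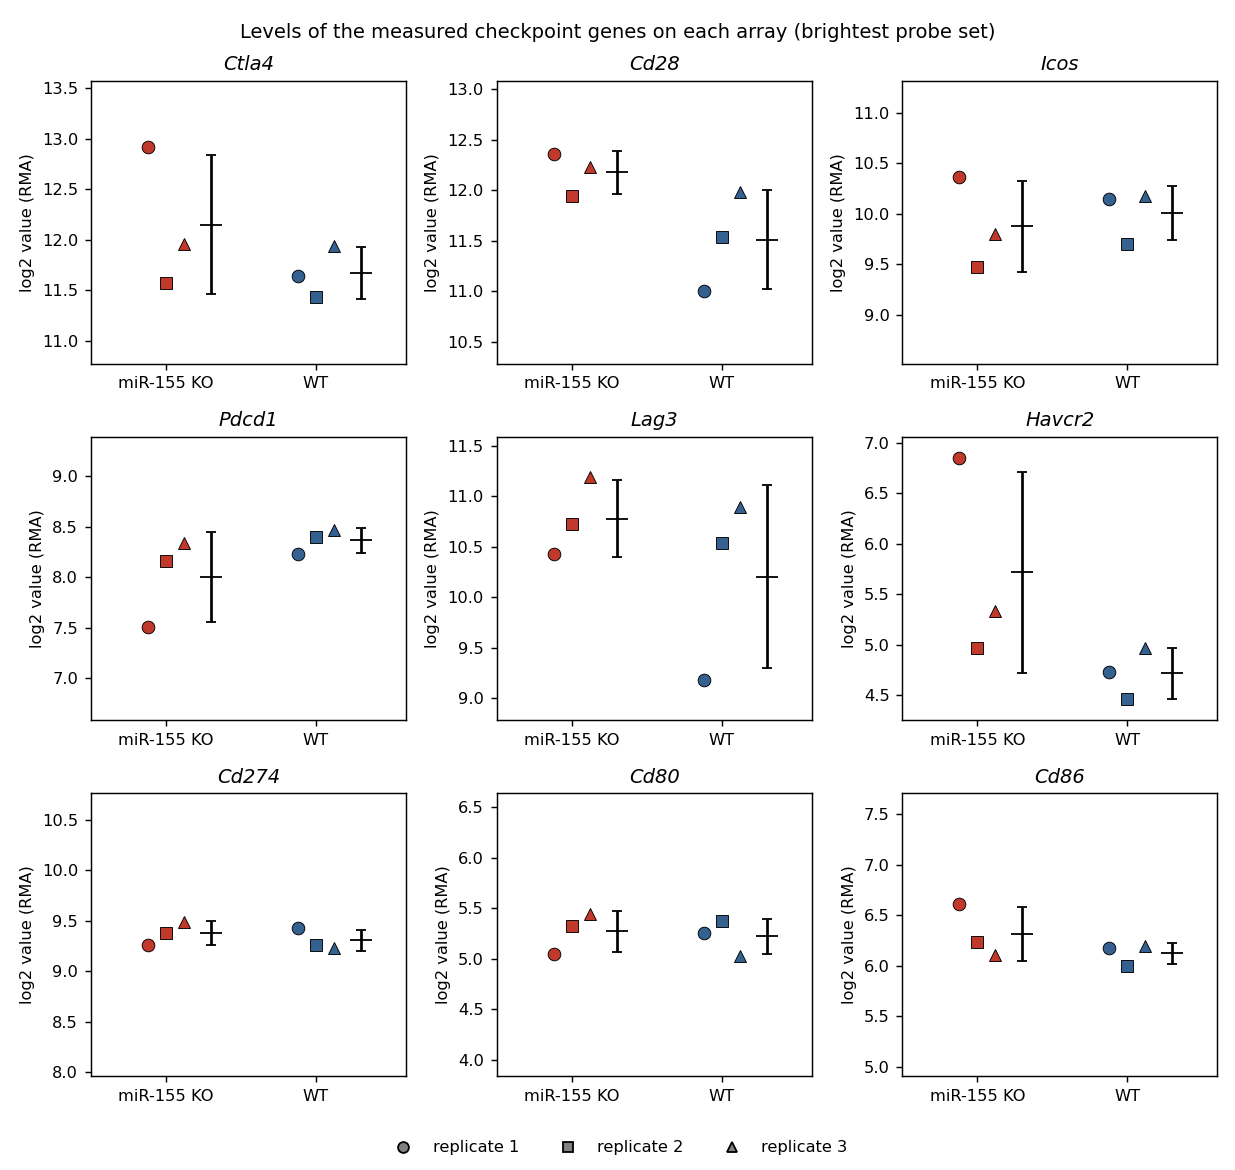
Log2 values of the brightest probe set of each measured gene on the 3 miR-155 KO arrays (left of each panel) and the 3 WT arrays (right), with the marker shape giving the replicate and bars the mean and SD. KO replicate 1 is the highest point for Ctla4 at 12.91 and Havcr2 at 6.85 and the lowest for Pdcd1 at 7.50, and WT replicate 1 is the lowest for Cd28 at 11.00 and Lag3 at 9.18.

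Among the costimulatory receptors, Cd28 had the smallest p of the 9 members. It measured 12.36, 11.94 and 12.23 in KO, against 11.00, 11.54 and 11.98 in WT. All KO arrays but replicate 2 lay above all WT arrays, and KO replicate 2 fell just under WT replicate 3. The means were 12.18 ± 0.21 in KO and 11.51 ± 0.49 in WT (SD, n = 3 each), a difference of 0.67 ± 0.26 (SE), or 1.59-fold, with a 95% interval of 0.05 to 1.29 (limma unadjusted p = 0.0385, adjusted p = 0.631). A second Cd28 probe set gave 12.02, 11.82 and 12.02 in KO, against 10.73, 11.43 and 11.64 in WT. On that probe set the genotypes did not overlap, as for 11.7% of all probe sets, and the difference was 0.68 ± 0.24 (SE, limma adjusted p = 0.705). WT replicate 1 was the lowest array on both probe sets, and without it the differences were 0.42 and 0.42. Without both replicate 3 arrays they were 0.88 and 0.84.

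Icos, which lies beside Ctla4 and Cd28 on chromosome 1 with no protein-coding gene between them in RefSeq, had another order of arrays than either. It measured 10.36, 9.47 and 9.80 in KO, against 10.15, 9.70 and 10.18 in WT. The KO arrays spanned the whole WT range, with KO replicate 1 the highest and KO replicate 2 the lowest of all 6. The difference was -0.13 ± 0.25 (SE), with a 95% interval of -0.74 to 0.48 (limma adjusted p = 0.864). The second probe set differed by 0.02 and ordered the arrays alike at both ends. Leaving out KO replicate 2 turned the sign of the first, to 0.07, and leaving out KO replicate 1 gave -0.37.

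The difference in Ctla4, the inhibitory counterpart of Cd28, came mostly from 1 array. The gene measured 12.91, 11.57 and 11.96 in KO, against 11.64, 11.43 and 11.94 in WT. KO replicate 1 stood above every other array, while KO replicates 2 and 3 lay within or just above the WT range. The means were 12.15 ± 0.69 in KO and 11.67 ± 0.26 in WT (SD, n = 3 each). The difference was 0.48 ± 0.35 (SE), or 1.39-fold, with a 95% interval of -0.35 to 1.31 (limma adjusted p = 0.656). Without KO replicate 1 it was 0.10, and without KO replicate 2 it was 0.77, so the size of the Ctla4 difference depended on which KO arrays were counted. The exact permutation p was 0.4, where 3 against 3 arrays cannot give less than 0.1.

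Pdcd1, which encodes the receptor PD-1, had the largest difference among the members with a lower mean in KO, itself and Icos. It measured 7.50, 8.17 and 8.34 in KO, against 8.23, 8.40 and 8.47 in WT. KO replicate 3 reached into the WT range and KO replicate 1 was the lowest of all. The difference was -0.36 ± 0.23 (SE), with a 95% interval of -0.91 to 0.19 (limma adjusted p = 0.640). Without KO replicate 1 it was -0.11, and without both replicate 3 arrays it was -0.48. The array that was highest for Ctla4 was thus the lowest for Pdcd1.

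Havcr2 and Lag3 encode inhibitory receptors outside the CD28 family. Havcr2, the gene for TIM-3, measured 6.85, 4.97 and 5.33 in KO and 4.73, 4.46 and 4.97 in WT. Each KO array was above each WT array, but KO replicate 2 exceeded WT replicate 3 only in the third decimal, at 4.968 and 4.966. The means were 5.72 ± 1.00 in KO and 4.72 ± 0.25 in WT (SD, n = 3 each), a difference of 1.00 ± 0.47 (SE), with a 95% interval of -0.13 to 2.13 (limma adjusted p = 0.631). The WT mean was as low as the mean of the dimmest gene tested, which was also 4.72, so the level in WT may be background and the size of the difference is uncertain. Without KO replicate 1 the difference was 0.43 and without KO replicate 2 it was 1.37.

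Lag3, whose protein binds MHC class II, measured 10.43, 10.73 and 11.19 in KO, against 9.18, 10.54 and 10.89 in WT. Apart from WT replicate 1, which was the lowest of the 6, the genotypes covered much the same range. The difference was 0.58 ± 0.45 (SE), with a 95% interval of -0.51 to 1.66 (limma adjusted p = 0.677). It was 0.06 without WT replicate 1.

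**Figure D2:**
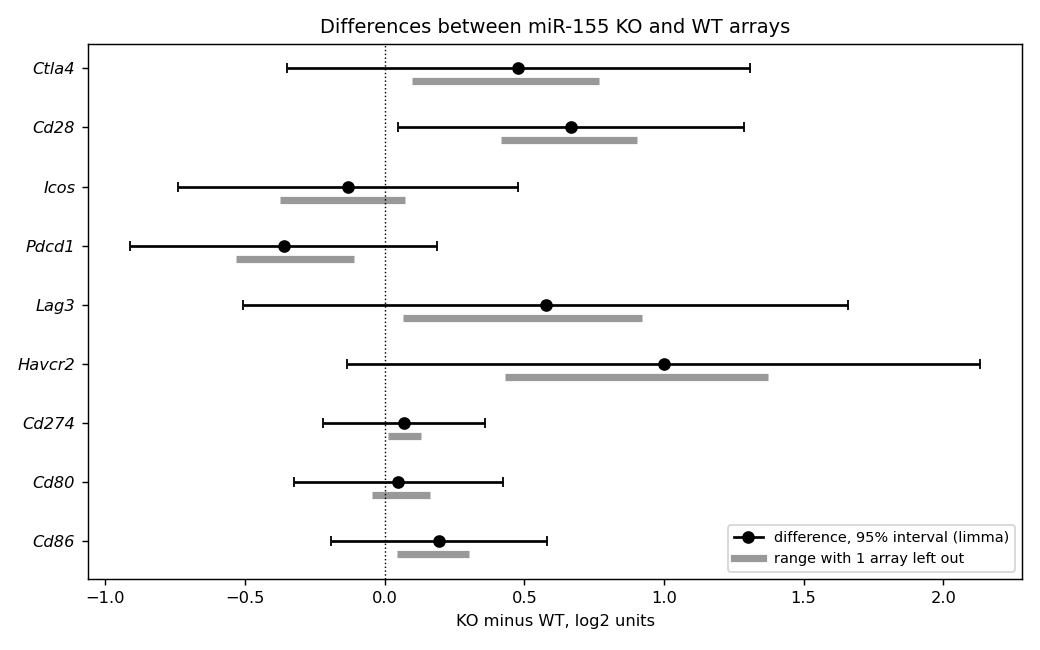
KO minus WT differences in log2 units of the brightest probe set of each member, with 95% limma intervals (black) and the range over fits with 1 array left out (grey). The Cd28 interval of 0.05 to 1.29 is the single one that stays above 0, and the grey ranges of Icos and Cd80 cross 0.

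The ligands differed less by their brightest probe sets. Cd274, the gene for PD-L1, measured 9.26, 9.38 and 9.49 in KO and 9.43, 9.26 and 9.23 in WT, and the genotypes overlapped. Its difference was 0.07 ± 0.12 (SE), and its 95% interval of -0.22 to 0.36 was the narrowest of the 9 members (limma adjusted p = 0.847). The sign turned to -0.025 without both replicate 3 arrays. Cd80 measured 5.05, 5.32 and 5.45 in KO, against 5.26, 5.38 and 5.03 in WT, a difference of 0.05 ± 0.16 (SE, limma adjusted p = 0.926). Its sign also turned without both replicate 3 arrays, to -0.13, and without either of them. The other 3 Cd80 probe sets differed by -0.13, -0.11 and 0.07, and the last 2 had all arrays below 4.72, so no direction could be read from them.

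Cd86 had 2 probe sets that disagreed in size. The one kept for the gene measured 6.61, 6.24 and 6.10 in KO and 6.18, 6.00 and 6.19 in WT, a difference of 0.19 ± 0.16 (SE, limma adjusted p = 0.687). The other measured 7.25, 6.06 and 5.69 in KO, against 5.83, 5.77 and 5.20 in WT, a difference of 0.73 ± 0.41 (SE, limma adjusted p = 0.705 over all probe sets). KO replicate 1 was the highest array on both, and without it the differences were 0.05 and 0.28. Cd80, Cd86 and Btla lie on chromosome 16, as does Mir155hg, with 159 protein-coding genes in RefSeq between Cd80 and Mir155hg.

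Because Cd80 and Cd86 are best known from antigen-presenting cells, markers of these cells were read beside them. Of 7 macrophage and monocyte markers 4 were below 4.72 on every array, Itgam, Fcgr1, Cd14 and Lyz2, and the mean of the list was 4.73 to 5.00 on the KO arrays and 4.54 to 4.87 on the WT arrays. The mean of 6 dendritic cell markers was 5.33 to 5.47 in KO and 5.24 to 5.53 in WT, with 2 of them below 4.72 throughout. The mean of 7 B cell markers was 5.84 to 6.21 in KO and 5.79 to 6.39 in WT, and that of 5 MHC class II genes 8.59 to 8.76 in KO and 8.15 to 8.88 in WT. All these ranges overlapped between genotypes. The 3 macrophage markers bright enough to be tested, Cd68, Adgre1 and Csf1r, all had a higher mean in KO, none past the test. Cd68 (7.10) and Adgre1 (5.12) were highest on KO replicate 1, as was Cd86, while Csf1r was highest on KO replicate 3 (6.54). Of the dim markers of that list, Itgam and Cd14 were lowest on KO replicate 1, but at such levels no direction could be read from them. Cd8a and Cd8b1 averaged 6.56 to 6.92 in KO and 6.56 to 6.75 in WT. Among 6 markers of regulatory T cells, which carry much CTLA-4, the mean was 7.69 to 8.16 in KO and 8.02 to 8.29 in WT, and the ranges overlapped. On KO replicate 1 that mean was the lowest of the 6 arrays, as was Nrp1 at 6.93, while Tnfrsf18 was the highest there at 13.31. Il2ra, Ikzf2 and Ikzf4 were neither the highest nor the lowest on that array. Foxp3, which defines these cells, measured 3.31, 4.70 and 3.45 in KO and 4.50, 4.74 and 3.58 in WT, and was too dim to be tested. The part of other cell types in the members' differences was not tested.

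The deviations from the mean of the 6 arrays show which arrays were the extremes. KO replicate 1 was the highest of the 6 arrays for 5 of 9 members, Ctla4, Cd28, Icos, Havcr2 and Cd86, and the lowest for 1, Pdcd1. Over all genes tested that array was the highest for 25.8% and the lowest for 30.2%. No other array was the highest for more than 3 members. WT replicate 2 was the lowest for 3 members, Ctla4, Havcr2 and Cd86, and over all genes for 13.3%. WT replicate 1 was the lowest for 2, Cd28 and Lag3, and over all genes for 22.8%, and WT replicate 3 for 2, and over all genes for 8.94%. The mean deviation of the 9 members was 0.33, -0.07 and 0.17 in KO, against -0.29, -0.19 and 0.05 in WT, so KO replicate 2 fell below WT replicate 3.

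Arrays of the same number matched across genotypes in Xist and Y-linked transcripts, so the differences were also read within each number, a comparison added after the data had been seen. Cd28 was higher in KO by 1.35 in replicate 1, 0.40 in replicate 2 and 0.25 in replicate 3. Ctla4 differed by 1.28, 0.14 and 0.02, Lag3 by 1.24, 0.19 and 0.30, and Havcr2 by 2.12, 0.51 and 0.36. Pdcd1 had a lower value in KO in each, with differences of -0.72, -0.23 and -0.13. In these 5 genes the sign was the same in all 3 numbers and the size was largest in replicate 1. The second Cd86 probe set was also higher in KO in each, by 1.41, 0.30 and 0.49, while Icos, Cd274, Cd80 and the kept Cd86 probe set had mixed signs. In all, 4 of 9 members were higher in KO within each number, against 19.6% of all genes, and 1 was lower within each, against 24.6%. With the replicate number as a block no member had an adjusted p under 0.05, and the unadjusted limma p was 0.054 for Cd28, 0.0604 for Havcr2, 0.0759 for Lag3 and 0.0791 for Pdcd1.

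**Figure D3:**
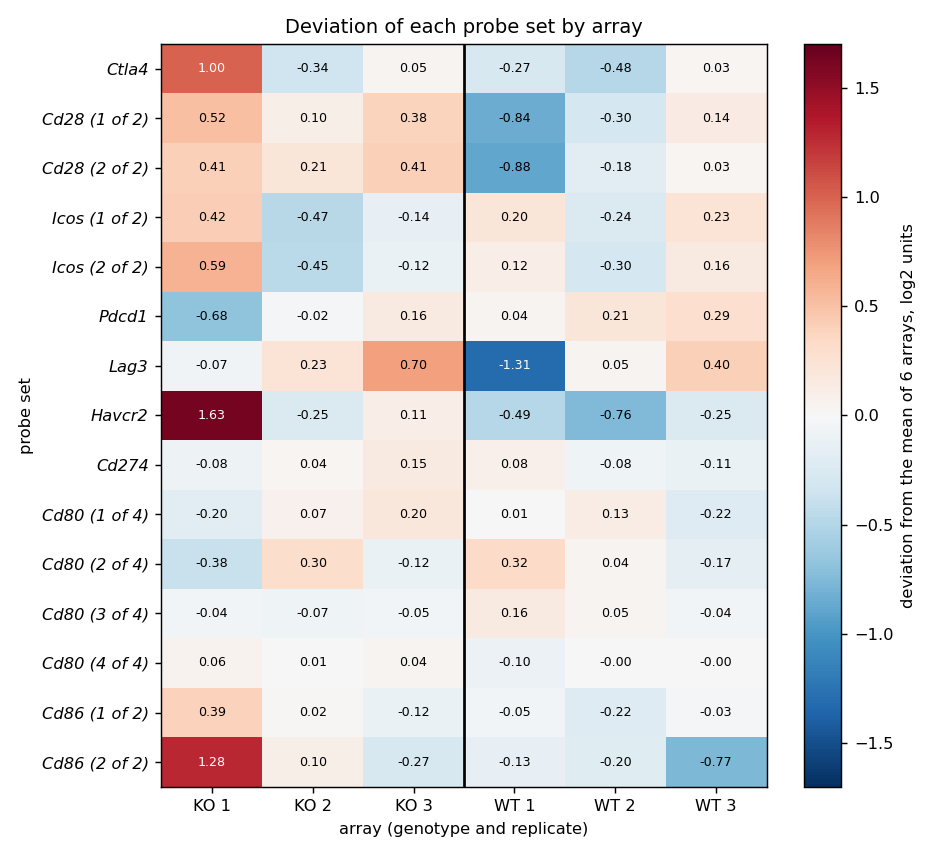
Deviation of each of the 15 probe sets (rows, the brightest of a gene first) from its mean over the 6 arrays, in log2 units, with the KO arrays left of the WT arrays. The KO 1 column holds the 3 largest positive deviations, in Havcr2, the second Cd86 probe set and Ctla4, and the WT 1 column the largest negative one, in Lag3.

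The genes whose profiles lay nearest to Ctla4 and Cd28 were also found, by the root mean square distance between centred profiles over the 6 arrays. Of 9294 other genes the nearest to Ctla4 were Dysf (distance 0.04 log2 units), Vps39 (0.07) and Wsb1 (0.07). Their differences were 0.48, 0.38 and 0.48, and all fell under 0.13 without KO replicate 1, as for Ctla4. The nearest to Cd28 were Arap1 (0.035), Crot (0.08) and Tent5c (0.08), which differed by 0.70, 0.61 and 0.65. Without WT replicate 1 these 3 differed by 0.47, 0.42 and 0.43, close to the 0.42 of Cd28. The genes near Ctla4 and near Cd28 were picked by their distance over these same arrays. Such likenesses therefore follow from the choice and are not separate evidence. No other member was among the 3 nearest to Ctla4 or to Cd28, and 967 genes lay closer to Ctla4 than Havcr2 did, the member with the nearest profile to it.

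Promoters are shown for the 3 inhibitory receptors on which KO replicate 1 stood out, Ctla4 and Havcr2 as the highest array and Pdcd1 as the lowest. They run from 250 bases before to 50 after the start of the gene, 5′ to 3′ on the gene's strand, from RefSeq on GRCm38.p6. RefSeq promoters were matched by symbol for 6 of the 10 listed genes. Capitals mark GGAAA, the core of sites for the activation factor NFAT, and TGANTCA, the site for AP-1, on either strand. The positions are chr1:60908775-60909074 on the plus strand for Ctla4, chr11:46454681-46454980 on the plus strand for Havcr2 and chr1:94052504-94052803 on the minus strand for Pdcd1.

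Ctla4: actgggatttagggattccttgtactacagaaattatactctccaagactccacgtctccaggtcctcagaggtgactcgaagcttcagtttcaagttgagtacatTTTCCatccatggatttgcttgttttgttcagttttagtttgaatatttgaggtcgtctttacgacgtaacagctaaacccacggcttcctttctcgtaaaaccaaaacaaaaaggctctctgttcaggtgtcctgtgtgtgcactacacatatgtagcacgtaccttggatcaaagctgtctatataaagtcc
Havcr2: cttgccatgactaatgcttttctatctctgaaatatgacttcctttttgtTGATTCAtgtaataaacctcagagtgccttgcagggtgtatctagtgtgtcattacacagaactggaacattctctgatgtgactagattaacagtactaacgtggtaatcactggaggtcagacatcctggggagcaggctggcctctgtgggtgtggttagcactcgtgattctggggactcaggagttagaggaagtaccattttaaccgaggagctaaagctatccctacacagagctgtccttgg
Pdcd1: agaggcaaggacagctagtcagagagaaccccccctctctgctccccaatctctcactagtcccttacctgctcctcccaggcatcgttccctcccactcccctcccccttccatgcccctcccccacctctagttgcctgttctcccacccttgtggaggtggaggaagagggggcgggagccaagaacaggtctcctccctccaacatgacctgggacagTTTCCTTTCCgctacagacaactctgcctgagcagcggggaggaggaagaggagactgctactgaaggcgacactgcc

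In these windows Ctla4 had 1 GGAAA and Pdcd1 had 2, and neither had TGANTCA, while Havcr2 had 1 TGANTCA and no GGAAA. The motifs did not overlap. Of 32851 RefSeq promoters of 300 bases, 61.3% held GGAAA and 7.81% held TGANTCA. A match describes the letters and is not evidence of a bound site.

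Genes that act with the checkpoint receptors were read from 7 lists, none of whose members had a limma adjusted p under 0.05. Among other receptors of this kind, 14 genes were tested, with 7 higher and 7 lower means in KO and a median of 0.01. At an unadjusted limma p under 0.05 there were 2, both higher, against 7.43% of all genes in either direction (3.57% higher). These were Vsir, the gene for the inhibitory receptor VISTA, and Lair1, the gene for an inhibitory collagen receptor. Vsir measured 10.34, 9.56 and 9.94 in KO, against 8.89, 9.30 and 9.44 in WT, with each KO array above each WT array. Its difference was 0.74 ± 0.24 (SE, limma adjusted p = 0.631), and a dimmer probe set differed by 0.45, with overlapping arrays. Lair1 averaged 6.52 ± 0.50 in KO and 5.78 ± 0.40 in WT (SD, n = 3 each), with overlapping arrays.

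Of 11 other ligands of such receptors, 6 had a higher and 5 a lower mean in KO (median 0.04). An unadjusted limma p under 0.05 was found for 2, both higher, against 7.43% of all genes in either direction (3.57% higher). Icosl, the ligand of ICOS, averaged 5.72 ± 0.21 in KO and 5.27 ± 0.09 in WT (SD, n = 3 each), a difference of 0.45 (limma adjusted p = 0.631). A dimmer Icosl probe set differed by 0.0073. Lgals3, which encodes galectin-3, measured 12.73, 11.90 and 12.34 in KO, against 9.497, 10.82 and 11.89 in WT. Its difference was 1.59 ± 0.58 (SE, limma adjusted p = 0.631), but WT replicate 3 came within 0.01 of KO replicate 2, and without WT replicate 1 the difference was 0.97.

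Signalling proteins below the CD28 family were tested for 19 genes, of which 11 had a higher and 8 a lower mean in KO (median 0.10). Dgka, a kinase that removes the messenger diacylglycerol, averaged 12.02 ± 0.31 in KO and 11.47 ± 0.27 in WT, and Vav1, an exchange factor that CD28 engages, 9.24 ± 0.16 in KO and 8.92 ± 0.11 in WT (SD, n = 3 each). They were the 2 of the list with an unadjusted p under 0.05 (limma adjusted p = 0.631 each), against 7.43% of all genes. The arrays overlapped for Dgka and not for Vav1. Genes for the trafficking and shedding of checkpoint proteins gave 0 of 12 at an unadjusted p under 0.05, against 7.43% of all genes. Their median was -0.02. The smallest p there were of Adam10, a sheddase that cleaves LAG-3, at -0.29, and of Ap2m1, the adaptor subunit that binds the tail of CTLA-4, at -0.15. The Adam10 difference was -0.0079 without KO replicate 1.

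Transcription factors tied to checkpoint genes included Prdm1 and Bcl6, whose encoded proteins are repressors. Of 18 tested, 9 had a higher and 9 a lower mean in KO, with a median of -0.0002. An unadjusted limma p under 0.05 was found for 4, all higher, against 7.43% of all genes in either direction (3.57% higher). KO and WT arrays did not overlap for 6 of the 18, against 12.8% of all genes. Prdm1, the gene for Blimp-1, measured 8.68, 7.51 and 8.03 in KO, against 6.15, 6.48 and 7.27 in WT, a difference of 1.44 ± 0.38 (SE, limma adjusted p = 0.631). Bcl6, which opposes Prdm1, measured 8.55, 8.27 and 8.95 in KO, against 5.65, 7.69 and 7.63 in WT, a difference of 1.59 that was 0.93 without WT replicate 1. On these probe sets each KO array was above each WT array. A second, dimmer Bcl6 probe set differed by 0.61, with overlapping arrays.

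Regulators of mRNA decay include the Roquin proteins known to limit Icos transcripts in mice. Of the Roquin genes listed, Rc3h2 was tested, with a difference of 0.26 and overlapping arrays, and Rc3h1 was not. Among the 7 regulators tested, 5 had a higher mean in KO (median 0.24), against 49.2% of all genes. An unadjusted limma p under 0.05 was found for 2, against 7.43% of all genes. Zfp36, which binds AU-rich elements, averaged 9.81 ± 0.40 in KO and 8.93 ± 0.64 in WT (SD, n = 3 each), with overlapping arrays. Its relative Zfp36l2 averaged 11.55 ± 0.03 in KO and 11.13 ± 0.28 in WT (SD, n = 3 each), with each KO array above each WT array. Without WT replicate 1 the differences were 0.53 for Zfp36 and 0.26 for Zfp36l2. The other 2 Zfp36l2 probe sets differed by 0.23 and 0.17, with overlapping arrays.

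Genes that CD28 signals induce included Il2 and Ifng, both with a lower mean in KO. Of 11 tested, 4 had a higher and 7 a lower mean in KO (median -0.15). Those 2 genes had an unadjusted limma p under 0.05, both lower, against 7.43% of all genes in either direction (3.86% lower). Il2, the T cell growth factor, measured 6.28, 7.99 and 6.49 in KO, against 10.14, 8.38 and 7.69 in WT, a difference of -1.82 ± 0.71 (SE, limma adjusted p = 0.631). KO replicate 2 was above WT replicate 3, and without WT replicate 1 the difference was -1.12. Ifng, the interferon gamma gene, averaged 6.85 ± 0.52 in KO and 8.01 ± 0.68 in WT (SD, n = 3 each), a difference of -1.17 with overlapping arrays. The other 9 genes of the list, among them Bcl2l1, Myc and Il2ra, did not reach an unadjusted p of 0.05.

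**Figure D4:**
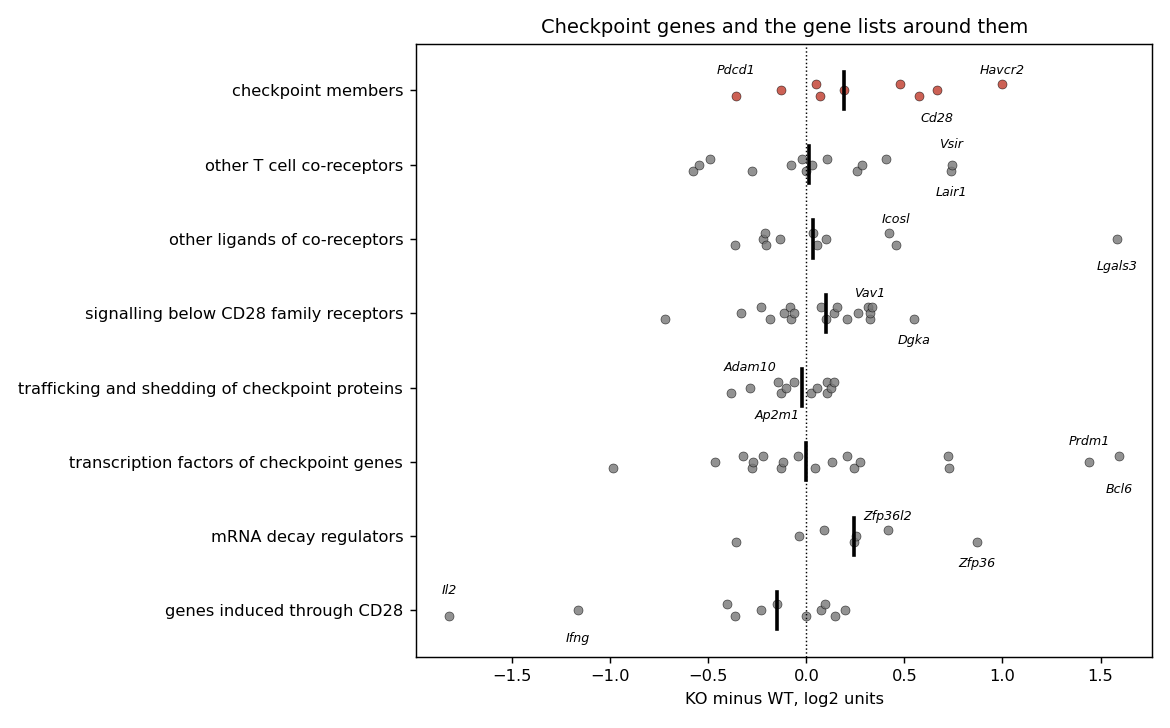
KO minus WT differences in log2 units of the 9 members (top row, red) and of the tested genes of 7 lists (grey), 1 point per gene, with a black bar at the median. The median is 0.19 for the members and between -0.15 and 0.24 for the lists, and the named list genes are the 2 with the smallest p in each.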

How the data were processed

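Biotin-labelled RNA of 6 cultures was hybridised to Affymetrix arrays. Per the submitters' processing notes, RMA and affy yielded the log2 values the authors deposited. Their versions and settings are not given in the sources used. RMA compresses differences near the background. No detection calls were used, and precision is limited by having 6 arrays. Names came from GEO's platform annotation, in which 20380 probe sets had 1 symbol, 691 several and 1555 none, beside 64 controls. Each gene was read from its brightest probe set, and the dimmest 25% of genes were dropped. KO was tested against WT by limma 3.58.1 under R 4.3.3 (eBayes, two-sided, Benjamini-Hochberg over all 9295 genes). The same fit over all 22626 probe sets, unfiltered, gave the values of second probe sets. Intervals are moderated 95% intervals. In data simulated for this comparison with 9295 genes and 200 changed by 1, 2 or 3 log2 units, 52.0%, 90.5% and 98.0% were called. Calls also held 6, 10 and 13 unchanged genes. The noise was drawn separately for each gene and array, with no effect shared by the genes of an array. Those shares may thus be too high for the deposited arrays. There Mir155hg differed by -3.55 and was not called (limma adjusted p = 0.705 over all probe sets).

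Besides every member, the text names the 2 genes with the smallest p of each list and the 3 nearest profiles of Ctla4 and of Cd28. Marker genes, Bcl2l1, Myc, Il2ra, Rc3h1, Rc3h2, Xist, Eif2s3y and the genes of the closing section fall outside that rule. The members, lists and tests were chosen with earlier results of these data known.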

Additional observations from a re-analysis of the deposited data

How the results depend on the processing

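With 3 arrays per genotype the intervals were wide. No setting run except array weights gave any gene an adjusted p under 0.05. Those weights were 5.55 for KO replicate 3 and 5.04 for WT replicate 2 against 0.27 to 0.58 for the rest. With them 3575 genes passed and 4711 had an unadjusted p under 0.05 (5283 probe sets, none adjusted), 5 members had one, and Cd28, Ctla4 and Havcr2 passed (limma adjusted p = 0.0141, 0.0451 and 0.0207). With weights estimated gene by gene, added after the data had been seen, no gene passed, and 2131 genes, 4943 probe sets and 2 members had an unadjusted p under 0.05. The replicate number as a block left 0 members under 0.05 (Cd28 limma unadjusted p = 0.054, adjusted p = 0.478), as did a plain test without moderation. Same-numbered arrays did not deviate together in every pair (correlations -0.04, 0.64 and 0.40), and no label ties the numbers to a litter, batch or day, although Xist and Y-linked transcripts match by number. The main comparison is therefore without the block, which gave 918 genes against 691, changed no adjusted call, and put the unadjusted p of Lag3 at 0.0759, against 0.246, and of the second Cd86 probe set at 0.0359, against 0.119. Without both replicate 3 arrays, also added later, 445 genes had an unadjusted p under 0.05, and Cd274 and Cd80 turned to -0.025 and -0.13. The median of the members was 0.47 with the mean of all probe sets of a gene, where Cd80 fell to the filter and is left out. With the filter at 50%, which keeps 6 members, 4 had a higher mean in KO. Icos turned to 0.018 with array weights. Leaving out 1 array gave 276 to 1542 genes and 680 to 3100 probe sets with an unadjusted p under 0.05, and 0 to 3 members. It gave -0.047 to 0.16 for Cd80 and -0.37 to 0.072 for Icos. Where no cause is named, the cause was not tested.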

Other observations

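Some genes of the lists outside the naming rule, chosen after their values were seen, set KO replicate 1 apart as Ctla4, Havcr2 and Pdcd1 did. Tox, a transcription factor known from exhausted T cells, measured 4.91, 7.11 and 6.79 in KO, against 6.94, 7.80 and 7.02 in WT. Nrp1, a surface receptor gene of regulatory T cells, measured 6.93, 9.19 and 8.88 in KO, against 9.03, 9.32 and 8.90 in WT. Grap2, the gene for an adaptor that binds the tail of CD28, measured 8.46, 6.88 and 6.85 in KO, against 7.06, 7.12 and 7.06 in WT. In each of these 3 genes KO replicate 1 lay over 1 log2 unit from every other array.

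Sh2d1a, which encodes the adaptor SAP of SLAM family receptors, had another pattern. It measured 8.79, 7.47 and 7.68 in KO, against 8.84, 8.60 and 8.66 in WT, so that KO replicate 1 lay among the WT arrays and the other KO arrays below them (difference -0.72, limma adjusted p = 0.631).

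The SD between arrays was larger in KO than in WT for 7 of 9 members, against 56.3% of all genes tested. Among these 7, KO replicate 1 was the highest KO array for Ctla4, Icos, Havcr2 and Cd86. It was the lowest KO array for Pdcd1, Cd274 and Cd80. The spread without that array was not computed, so the count cannot be read as a trait of the genotype.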
